A study of Mus musculus with 16 samples.

Results

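The response to 2 Toll-like receptor agonists was followed by RNA-seq in cultured dendritic cells of the unoperated KO arm, which the source labels name ERα short. It rests on 4 of the 16 libraries of the series, taken by their labels and not by any measured value, and on all 24001 gene rows. The cells were grown from marrow of the lupus-prone strain NZM2410 with IL-4 at 10 ng/ml and GM-CSF at 20 ng/ml, and were harvested on day 7. The 2 KO agonist libraries came from cells given loxoribine, a TLR7 agonist, and CpG DNA, a TLR9 agonist, for 24 h, and the 2 KO vehicle libraries from cells given vehicle. CpG was given at 1 µg/ml, and the label's loxoribine dose of 200 µmol/ml has a unit that could not be checked. The WT agonist and WT vehicle groups (2 libraries each, unaltered receptor, same culture and treatment, no surgery) were used to test whether a response differed in KO cells. All of these groups share the NZM2410 background and the cytokine culture. The labels give the unoperated mice no age.

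The labels do not settle the allele of the KO arm. The source labels give both KO groups the truncated receptor ERα short, whereas the genotype labels give the agonist libraries that allele and the vehicle libraries the null allele. FPKM summed per gene cannot show which allele the reads came from. Esr1 was at 2.47 and 2.57 FPKM in the KO vehicle libraries. In the unoperated WT vehicle libraries, with the unaltered receptor, it was lower, at 1.21 and 1.38 FPKM. In ovariectomized vehicle libraries of the series it was at 0.347 and 0.283 FPKM where source labels name the null allele. Where they name ERα short it was at 1.02 and 0.982 FPKM. These groups also differ from the KO arm in surgery, and the allele of the KO vehicle libraries was not tested. If the genotype labels are right, allele and treatment cannot be told apart in every comparison of agonist with vehicle below. The labels of the second library in each KO group also say that 1 raw read file was corrupted. No source used here ties the paired libraries of a group to different mice or culture dishes. The p-values therefore measure library-to-library spread, which can be technical.

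Esr1, the targeted gene, was at 2.01 and 1.77 FPKM in the agonist libraries, against 2.47 and 2.57 FPKM in the vehicle libraries. Both agonist libraries were lower than both vehicle libraries, and all 4 held Esr1 reads. The log2 fold change was -0.29 ± 0.08 (limma adjusted p = 0.0118), and the call was lost without the second agonist library (adjusted p = 0.0805) and without the second vehicle library (adjusted p = 0.067). Itgax, which encodes CD11c, stood at 97.7 and 104 FPKM in the agonist libraries and 115 and 111 FPKM in the vehicle libraries, and the 16 listed dendritic cell markers summed to 8671 and 8518 FPKM in the agonist libraries, against 7659.9 and 7761 FPKM in the vehicle libraries. Of these markers (13 tested of 16 listed), 7 rose, 4 fell and 2 did not pass, with a median log2 fold change of 0.27. Much of the higher sum came from the maturation genes Fscn1 and Ccr7. Fscn1 was at 1324 and 1264 FPKM in the agonist libraries, against 642 and 646 FPKM in the vehicle libraries, and Ccr7 is given below. Sirpa (0.50 ± 0.02), Ciita (0.50 ± 0.03), Irf8 (0.39 ± 0.03), Irf4 (0.37 ± 0.03) and Zbtb46 (0.27 ± 0.06) rose too. Itgax (-0.16 ± 0.03), Itgam (-0.42 ± 0.04) and Flt3 (-0.48 ± 0.06) fell. The defining plasmacytoid marker Siglech and the macrophage marker Vsig4 were listed at 0 in all 4 libraries, but other members of their lists were abundant. The macrophage marker Cd68 was at 211 and 220 FPKM with agonist and 272 and 280 FPKM with vehicle. The plasmacytoid marker Bst2 was at 438 and 422 FPKM with agonist and 504 and 491 FPKM with vehicle. The sums of both lists are given below. The 9 listed B cell markers summed to less than 1 FPKM in each library. Depth, estimated from the steps between low values, was 41.2 to 41.9 M fragments in the KO libraries. In bulk RNA, fewer cells of a type and less RNA per cell cannot be told apart.

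TLR7 and TLR9 sit in the endosome and detect single-stranded RNA and unmethylated CpG DNA. Both signal through the adaptor MyD88 to NF-kB, AP-1 and interferon regulatory factors, which drive cytokine genes and the maturation of dendritic cells into cells that prime T cells. In lupus these receptors are known for their response to the body's own nucleic acids, and a day after stimulation the feedback genes that restrain NF-kB are part of the known program.

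Promoters of the genes with the largest rises are shown first, because some hold the sequence to which NF-kB binds. RefSeq promoter windows (GRCm38.p6, 250 bases before to 50 after the start site) were matched for 19 of the 25 genes with the largest rises and searched on both strands for the NF-kB motif GGGANTTTC. It was present in 4 of the 19 (21.1%), Cxcl1, Cxcl2, Cxcl3 and Il6. It was found in 106 of the 8629 tested genes with a matched window (1.23%) and in 0 of 16 such genes among the 25 largest falls. A gene counted if any of its windows held the motif. Counted by window and not by gene, the share was 1.11% of all 32851 windows. All 4 genes lie on the plus strand of chromosome 5, and Cxcl1, Cxcl2 and Cxcl3 are neighbours of common descent. The 150 bases before each start site follow, 5′ to 3′, with the motif in capitals at position -44 in Il6 (chr5:30012964-30013113), -71 in Cxcl1 (chr5:90891095-90891244), -97 in Cxcl2 (chr5:90903749-90903898) and -73 in Cxcl3 (chr5:90785951-90786100) from the start site.
Il6: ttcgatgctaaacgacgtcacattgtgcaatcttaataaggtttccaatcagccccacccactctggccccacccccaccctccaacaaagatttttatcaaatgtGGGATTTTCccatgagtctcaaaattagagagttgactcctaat
Cxcl1: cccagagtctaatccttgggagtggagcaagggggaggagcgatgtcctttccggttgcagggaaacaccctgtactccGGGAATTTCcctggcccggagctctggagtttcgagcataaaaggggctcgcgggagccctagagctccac
Cxcl2: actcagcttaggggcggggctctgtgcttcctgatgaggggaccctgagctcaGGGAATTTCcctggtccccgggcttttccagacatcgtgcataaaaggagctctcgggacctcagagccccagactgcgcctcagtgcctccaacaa
Cxcl3: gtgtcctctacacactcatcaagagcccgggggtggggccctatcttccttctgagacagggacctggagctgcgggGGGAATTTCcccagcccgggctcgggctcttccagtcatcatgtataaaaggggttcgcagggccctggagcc
The interferon response motif GAAANNGAA was in none of these 4 windows, so the motifs did not overlap there. It was in 2 of the 19 matched rises (10.5%, Ccl3 and Saa3) and in 4 of the 16 matched falls (Ccr2, Zranb3, Vegfa and Cd300lf), against 8.92% of the tested genes with a matched window. A match is a run of letters and not a shown binding site.

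After agonist, KO cells held far more RNA for many inflammatory cytokines and chemokines, and modestly less for most of the listed genes of DNA replication, uptake receptors and lysosomal enzymes. Of 11347 genes tested, 5815 passed limma's test at an adjusted p of 0.05 (51.2%). They were split into 2942 that rose (25.9%) and 2873 that fell (25.3%), and the median log2 fold change over all genes tested was 0.01. These shares are the background for every list count below. Most changes were small: 130 genes rose more than 2-fold (1.15%) and 63 fell more than 2-fold (0.555%). The 2 groups did not overlap in 8438 genes (74.4%). The largest rises and falls named below were taken only from such genes, so their lack of overlap is given by that choice. Libraries of a group differed by a median of 0.0448 log2 units with agonist and 0.0418 with vehicle. The 2-fold counts moved with the pseudocount, to 199 rises and 206 falls at 0.1 FPKM and to 70 rises and 13 falls at 5 FPKM. Fold changes below are on the scale log2(FPKM + 1), agonist minus vehicle, with the standard error after ±, and "passed" refers to limma's adjusted p.

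The gene with the largest rise was Ptgs2, the inducible cyclooxygenase that starts prostaglandin synthesis (chromosome 1, 150100031 to 150108227, mm10). It was at 71.2 and 60.2 FPKM in the agonist libraries, against 2.88 and 2.69 FPKM in the vehicle libraries. Both agonist libraries exceeded every vehicle library many times over, and the log2 fold change was 4.14 ± 0.21 (limma adjusted p = 5.52e-05). Ptges, the next enzyme toward prostaglandin E, followed at 44.4 and 41.5 FPKM in the agonist libraries, against 8.98 and 7.67 FPKM in the vehicle libraries, without overlap (2.24 ± 0.06). The constitutive cyclooxygenase Ptgs1 went the other way, at 17.1 and 19.3 FPKM in the agonist libraries, against 34.8 and 36.2 FPKM in the vehicle libraries (-0.93 ± 0.05). So did thromboxane synthase Tbxas1 (-0.82) and the leukotriene genes Alox5 (-0.90) and Alox5ap (-0.56), each of which passed. Among the 25 largest rises outside the lists below, Lox, which cross-links collagen, was at 21.0 and 19.8 FPKM in the agonist libraries, against 1.55 and 1.30 FPKM in the vehicle libraries, and its groups lay apart (3.14 ± 0.05). Nppc, a natriuretic peptide precursor, rose by 2.74 ± 0.15, with 13.8 and 12.4 FPKM with agonist and 1.41 and 0.858 FPKM with vehicle, and the phosphatase genes Acpp (2.17 ± 0.03) and Ppap2a (2.23 ± 0.04) rose as well.

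**Figure D1:**
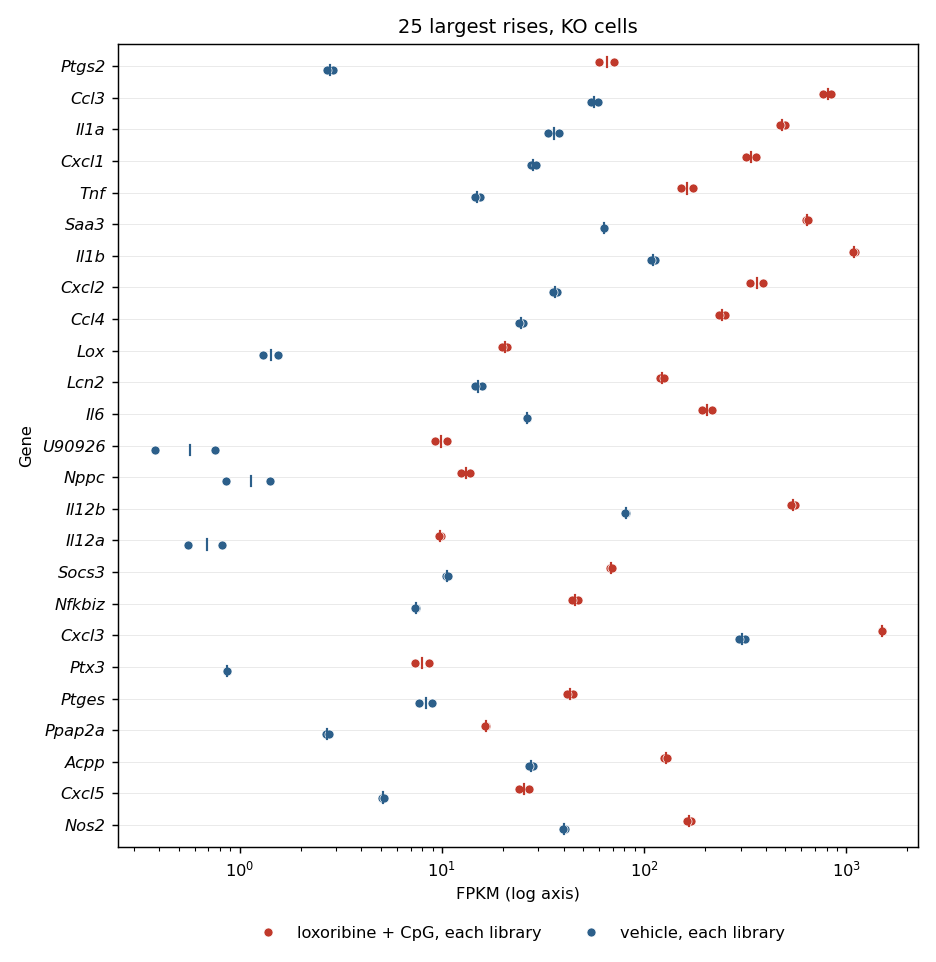
FPKM (log axis) of the 25 genes with the largest rises in each of the 4 KO libraries, agonist and vehicle, with 1 point per library and a tick at the mean. Because the genes were chosen for non-overlapping groups, both agonist points lie above both vehicle points in every gene shown. The pair of points of a group lie close together next to the distance between groups.

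The receptors of the 2 agonists were themselves slightly lower after stimulation. Tlr9 was at 12.8 and 12.6 FPKM in the agonist libraries, against 16.9 and 16.04 FPKM in the vehicle libraries, and the groups lay apart (-0.35 ± 0.03, limma adjusted p = 2.10e-05). Tlr7 was at 12.03 and 12.9 FPKM in the agonist libraries, against 14.3 and 14.1 FPKM in the vehicle libraries (-0.17 ± 0.04, limma adjusted p = 0.00374), and the trafficking chaperone of both, Unc93b1, was also lower (-0.19 ± 0.03). Tlr8 (-0.52) and the endosomal proteases Lgmn (-0.47) and Ctsk (-0.46), which have been implicated in TLR9 processing, fell too. Signalling genes rose: the adaptor Myd88 was at 47.7 and 49.8 FPKM in the agonist libraries, against 42.3 and 40.8 FPKM in the vehicle libraries (0.23 ± 0.04), the adaptor Pik3ap1 rose by 0.82 ± 0.04 and the kinase Ikbkb by 0.39 ± 0.03. The largest rise of this list was that of Irak3, a kinase-like protein that restrains MyD88 signalling, at 45.1 and 49.4 FPKM in the agonist libraries, against 17.2 and 17.0 FPKM in the vehicle libraries (1.41 ± 0.04). Over the list of endosomal sensing and adaptors (24 tested of 24 listed), 11 rose, 9 fell and 4 did not pass, with a median log2 fold change of -0.01, and the count of rises was 7 with both second KO libraries left out.

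Surface receptors changed in both directions. Tlr1, which pairs with TLR2 on bacterial lipoproteins, was at 4.89 and 4.58 FPKM in the agonist libraries, against 1.01 and 0.861 FPKM in the vehicle libraries (1.57 ± 0.05). Tlr2 (0.78 ± 0.03) and the co-receptor Cd14 (0.66 ± 0.02) also rose, with Cd14 at 834 and 842 FPKM in the agonist libraries, against 534 and 525 FPKM in the vehicle libraries. Tlr4, the endotoxin receptor, was at 15.2 and 15.97 FPKM in the agonist libraries, against 24.7 and 23.7 FPKM in the vehicle libraries (-0.60 ± 0.03), and Cd180 (-0.89 ± 0.04) and the flagellin receptor Tlr5 (-0.70 ± 0.06) fell, Tlr5 being under 1 FPKM in all 4 libraries. In this list (13 tested of 13 listed), 8 rose, 5 fell and 0 did not pass, with a median log2 fold change of 0.18.

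NF-kB feedback genes rose almost as a body, while the NF-kB subunits moved little. Of the feedback and mRNA decay genes (21 tested of 21 listed), 18 rose, 0 fell and 3 did not pass, with a median log2 fold change of 0.54, against 0.01 over all genes. Socs3, which blocks cytokine receptor signalling, was at 67.8 and 69.4 FPKM in the agonist libraries, against 10.5 and 10.8 FPKM in the vehicle libraries, far apart (2.58 ± 0.03, limma adjusted p = 6.83e-11). Nfkbiz, a nuclear IkB protein needed for Il6 expression, was at 47.1 and 44.0 FPKM in the agonist libraries, against 7.44 and 7.36 FPKM in the vehicle libraries (2.47 ± 0.04). The RNase gene Zc3h12a, whose protein degrades cytokine mRNAs, was at 76.8 and 77.9 FPKM in the agonist libraries, against 26.4 and 26.3 FPKM in the vehicle libraries (1.52 ± 0.03). Socs1 (1.11 ± 0.05), the ubiquitin editor Tnfaip3 (0.92 ± 0.03) and the inhibitor Nfkbia (0.81 ± 0.03) rose less, Nfkbia at 434 and 416 FPKM in the agonist libraries, against 238 and 246 FPKM in the vehicle libraries.

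Among the 5 NF-kB subunits, Nfkb1 was at 125 and 124 FPKM in the agonist libraries, against 94.3 and 93.5 FPKM in the vehicle libraries (0.40 ± 0.02) and Nfkb2 rose by 0.29 ± 0.03, whereas Relb was lower, at 109 and 105 FPKM in the agonist libraries, against 119 and 119.8 FPKM in the vehicle libraries (-0.16 ± 0.03). Rela (0.09 ± 0.03) and Rel (0.10 ± 0.03) passed, and both calls were lost without the first agonist library (adjusted p = 0.113 and 0.131), without the second vehicle library (0.115 and 0.0963) and under quantile normalization. AP-1 and Egr factors split, and of the 16 tested of 18 listed, 6 rose, 7 fell and 3 did not pass, with a median log2 fold change of 0.03. Batf, which works with IRF4 and JUN proteins in dendritic cells, was at 48.1 and 48.1 FPKM in the agonist libraries, against 21.9 and 22.4 FPKM in the vehicle libraries (1.09 ± 0.03), and Junb rose by 0.38 ± 0.03. Fos, the classic immediate early gene, was lower, at 13.6 and 16.1 FPKM in the agonist libraries, against 41.6 and 45.5 FPKM in the vehicle libraries without overlap (-1.49 ± 0.07, limma adjusted p = 9.01e-08), as were Myc (-0.76), Klf4 (-0.76) and Egr1 (-0.35).

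Cytokine genes formed the list with the highest median. Of the inflammatory cytokines (26 tested of 27 listed), 21 rose, 3 fell and 2 did not pass, with a median log2 fold change of 0.90, and 12 rose more than 2-fold. Il1a was at 497 and 470.2 FPKM in the agonist libraries, against 37.8 and 33.6 FPKM in the vehicle libraries (3.72 ± 0.09, limma adjusted p = 1.69e-07). Il1b, the most abundant of the interleukins named here, was at 1111 and 1078 FPKM in the agonist libraries, against 113 and 108 FPKM in the vehicle libraries (3.30 ± 0.15). Both genes were several-fold higher in each agonist library than in each vehicle library. Tnf was at 175 and 153 FPKM in the agonist libraries, against 15.4 and 14.6 FPKM in the vehicle libraries (3.36 ± 0.21, limma adjusted p = 1.56e-04), and Il6, whose NF-kB motif is printed above, was at 216 and 194 FPKM in the agonist libraries, against 26.5 and 26.5 FPKM in the vehicle libraries (2.90 ± 0.05, limma adjusted p = 2.08e-10).

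The genes of the IL-12 family rose together. Il12b, the chain that IL-12 and IL-23 share, was at 555 and 532 FPKM in the agonist libraries, against 81.7 and 80.6 FPKM in the vehicle libraries (2.73 ± 0.04, limma adjusted p = 1.19e-10). Il12a, the other chain of IL-12, was much lower in FPKM, at 9.87 and 9.66 FPKM in the agonist libraries, against 0.555 and 0.818 FPKM in the vehicle libraries (2.68 ± 0.07). Il23a, the other chain of IL-23, was at 5.69 and 4.60 FPKM in the agonist libraries, against 0.752 and 0.961 FPKM in the vehicle libraries (1.72 ± 0.09). In each of the 3 genes the groups lay well apart. Ebi3 was at 265 and 246 FPKM in the agonist libraries, against 94.0 and 96.0 FPKM in the vehicle libraries (1.42 ± 0.03), while its IL-27 partner Il27 was at 1.58 and 1.64 FPKM with agonist and 0.124 and 0.124 FPKM with vehicle (1.21 ± 0.06). Per kilobase, the agonist libraries thus held Il12b and Ebi3 at levels far above those of Il12a, Il23a and Il27.

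Growth factor and regulatory cytokine genes were mixed. Csf3, the granulocyte growth factor, was at 5.47 and 3.76 FPKM in the agonist libraries, against 0.219 and 0.184 FPKM in the vehicle libraries (2.21 ± 0.12). Inhba, the activin chain, was at 327 and 288 FPKM in the agonist libraries, against 133 and 129 FPKM in the vehicle libraries (1.22 ± 0.06) and Lif rose by 1.24 ± 0.05. The TNF family ligands Tnfsf9 (0.89 ± 0.09) and Tnfsf15 (0.83 ± 0.03) rose, and Il10, which restrains inflammation, passed at under 1 FPKM, with 0.488 and 0.460 FPKM with agonist and 0 and 0.116 FPKM with vehicle. The list held 3 falls. Tnfsf13b, which encodes the B cell survival factor BAFF, was at 1.86 and 1.72 FPKM in the agonist libraries, against 3.92 and 4.16 FPKM in the vehicle libraries (-0.85 ± 0.05). Il18 was at 4.02 and 3.58 FPKM in the agonist libraries, against 6.30 and 7.03 FPKM in the vehicle libraries (-0.68 ± 0.07), and Csf1 was at 41.2 and 38.3 FPKM in the agonist libraries, against 49.9 and 50.0 FPKM in the vehicle libraries (-0.32 ± 0.03).

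**Figure D2:**
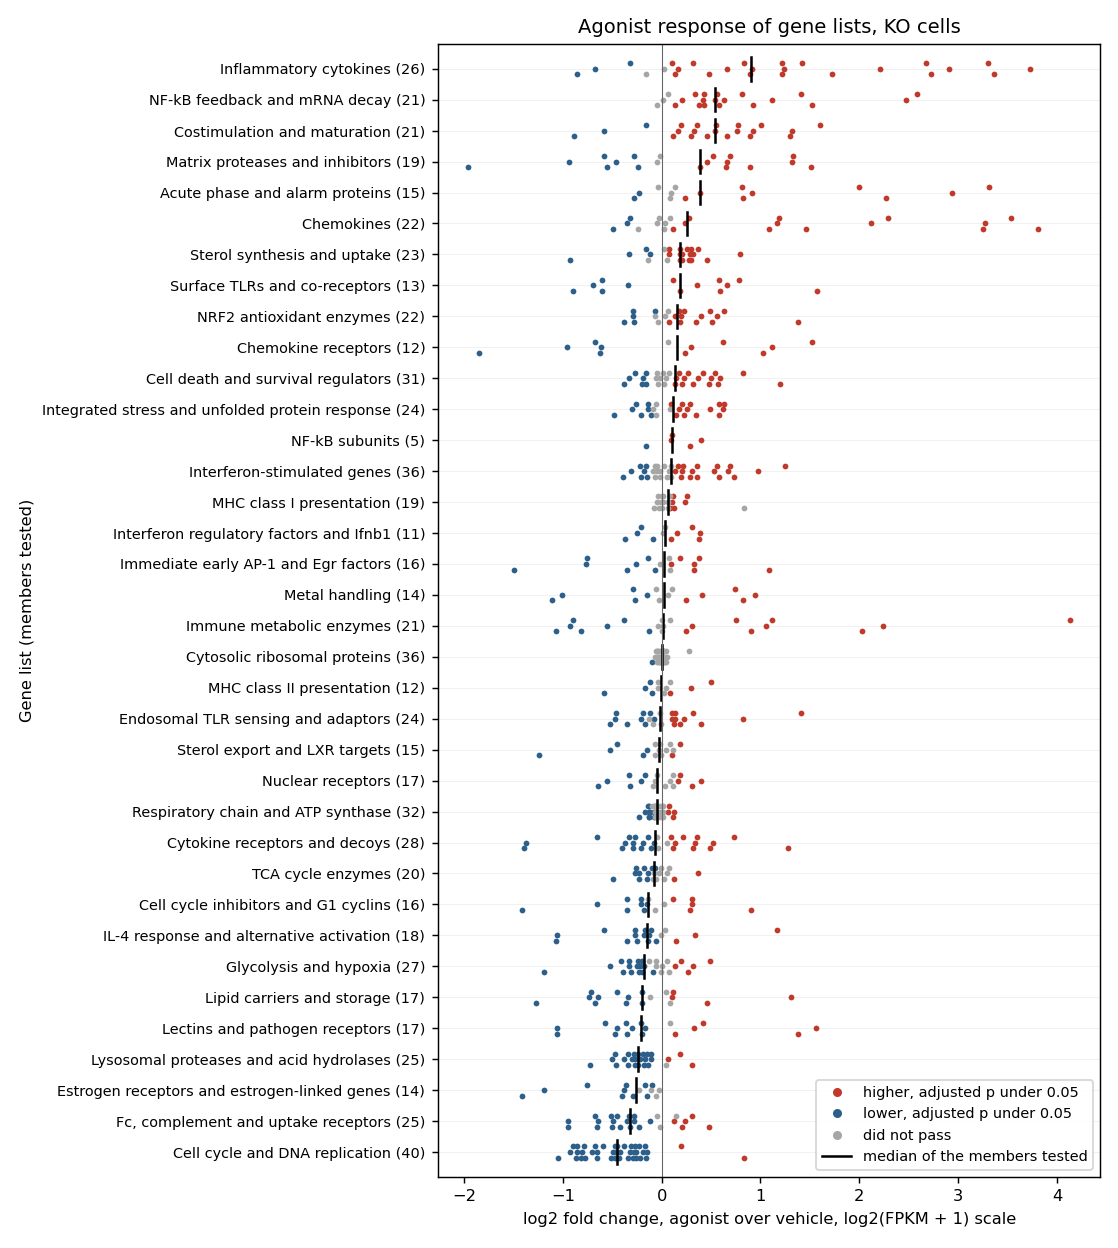
Log2 fold change (agonist minus vehicle) of the members tested in each gene list, 1 point per gene, coloured by whether it passed as higher or lower or did not pass, with a bar at the list median. Inflammatory cytokines have the highest median at 0.90, and cell cycle and DNA replication genes lie on the lower side with a median of -0.45.

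Chemokine genes had some of the largest rises of all genes, and few fell. Of the list (22 tested of 23 listed), 13 rose, 3 fell and 6 did not pass, with a median log2 fold change of 0.25, and 10 rose more than 2-fold. Ccl3 was at 845 and 772 FPKM in the agonist libraries, against 54.8 and 58.9 FPKM in the vehicle libraries (3.81 ± 0.06, limma adjusted p = 3.74e-10), and its relative Ccl4, at 252 and 234 FPKM in the agonist libraries, against 25.3 and 23.9 FPKM in the vehicle libraries (3.25 ± 0.11). For both genes each agonist library stood many times above each vehicle library.

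The neutrophil attractants Cxcl1, Cxcl2 and Cxcl3, whose promoters are printed above, rose by 3.53 ± 0.16, 3.28 ± 0.09 and 2.29 ± 0.04. Cxcl3 had the highest level, at 1495 and 1505 FPKM in the agonist libraries, against 316 and 294 FPKM in the vehicle libraries. Cxcl1 was at 359 and 319 FPKM in the agonist libraries, against 27.7 and 29.1 FPKM in the vehicle libraries, and Cxcl2 was at 389 and 335 FPKM in the agonist libraries, against 37.2 and 35.5 FPKM in the vehicle libraries. Reads of these similar genes could have been split in counting. The monocyte attractants Ccl2 (1.09 ± 0.03) and Ccl7 (1.19 ± 0.04) rose about as much as Ccl17, which draws T cells and was at 2963 and 2777 FPKM in the agonist libraries, against 1255 and 1291 FPKM in the vehicle libraries (1.17 ± 0.03). Cxcl10, an interferon-inducible T cell attractant, was low but higher with agonist, at 11.5 and 11.2 FPKM in the agonist libraries, against 3.41 and 3.55 FPKM in the vehicle libraries (1.46 ± 0.13, limma adjusted p = 1.18e-04). Ccl6, at 634 and 675 FPKM in the agonist libraries, against 911 and 931 FPKM in the vehicle libraries (-0.49 ± 0.03), and Ccl24 (-0.36 ± 0.02) were lower, as was Ppbp (-0.32 ± 0.05). Ccl22 was listed at 0 in both agonist libraries against 6655 and 6952 FPKM in the vehicle libraries, while the other 14 libraries of the series held 1568 to 11988 FPKM, so the zeros were taken as missing and Ccl22 was not tested.

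Receptors for chemokines and chemoattractants changed in both directions. Ccr2, which brings monocytes out of the marrow, was among the largest falls, at 3.43 and 4.01 FPKM in the agonist libraries, against 15.9 and 16.1 FPKM in the vehicle libraries, without overlap (-1.85 ± 0.08, limma adjusted p = 6.85e-08). The complement receptor C5ar1 was at 10.6 and 12.3 FPKM in the agonist libraries, against 18.8 and 19.0 FPKM in the vehicle libraries (-0.68 ± 0.06). Fpr1, a receptor for bacterial formyl peptides, was at 188 and 202 FPKM in the agonist libraries, against 69.0 and 65.2 FPKM in the vehicle libraries (1.52 ± 0.04), with Fpr2 (1.03 ± 0.04) and Ccrl2 (1.12 ± 0.07) also higher. Ccr7, which guides mature dendritic cells to lymph nodes, was abundant in both groups, at 2205 and 2149 FPKM in the agonist libraries, against 1724 and 1813 FPKM in the vehicle libraries, and rose by only 0.30 ± 0.03. Of the 12 tested of 16 listed, 6 rose, 5 fell and 1 did not pass, with a median log2 fold change of 0.15.

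Among cytokine receptors and decoys, Tnfrsf1b, a TNF receptor, was at 263 and 264 FPKM in the agonist libraries, against 107 and 109.6 FPKM in the vehicle libraries (1.28 ± 0.02), and Il1r1, the signalling IL-1 receptor, rose by 0.73 ± 0.05. Both chains of the IL-18 receptor were low and fell, Il18r1 at 0.394 and 0.224 FPKM in the agonist libraries, against 2.61 and 2.27 FPKM in the vehicle libraries (-1.39 ± 0.09) and Il18rap by -1.37 ± 0.06. Il6st, the shared signalling chain of the IL-6 family, was also lower (-0.66 ± 0.03). In this list (28 tested of 29 listed), 11 rose, 14 fell and 3 did not pass, with a median log2 fold change of -0.06. The count of rises was 7 with both second KO libraries left out.

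Costimulation genes rose broadly, and no member tested failed the test. Of the 21 tested of 22 listed, 18 rose, 3 fell and 0 did not pass, with a median log2 fold change of 0.54. Cd40, the receptor for T cell help, was at 252 and 234 FPKM in the agonist libraries, against 78.4 and 79.7 FPKM in the vehicle libraries (1.61 ± 0.04, limma adjusted p = 2.67e-09). Cd80 was at 142 and 138 FPKM in the agonist libraries, against 73.9 and 73.1 FPKM in the vehicle libraries (0.92 ± 0.03) and Cd86 at 82.8 and 79.8 FPKM in the agonist libraries, against 47.1 and 48.2 FPKM in the vehicle libraries (0.76 ± 0.03), both ligands of CD28 on T cells. All 3 genes had agonist values well above the vehicle values. Icosl (1.31 ± 0.03), Cd70 (1.30 ± 0.05), the cytoskeletal bundler Fscn1 (1.01 ± 0.03), the adhesion molecule Icam1 (0.55 ± 0.03) and the inhibitory ligand Cd274 (0.54 ± 0.02) rose as well. The other inhibitory PD-1 ligand, Pdcd1lg2, was lower, at 29.3 and 30.5 FPKM in the agonist libraries, against 44.9 and 45.4 FPKM in the vehicle libraries (-0.58 ± 0.03).

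Antigen presentation genes moved far less than costimulation genes. For MHC class II (12 tested of 13 listed), 3 rose, 4 fell and 5 did not pass, with a median log2 fold change of -0.01, and 2 fell with both second KO libraries left out. Ciita, the master activator of the class, was at 29.1 and 29.3 FPKM in the agonist libraries, against 20.5 and 20.4 FPKM in the vehicle libraries (0.50 ± 0.03), whereas Ifi30, the lysosomal thiol reductase, was at 108 and 109.9 FPKM in the agonist libraries, against 163 and 165 FPKM in the vehicle libraries (-0.58 ± 0.02). Cd74, the invariant chain, had a log2 fold change of -0.09 ± 0.02 as deposited (limma adjusted p = 0.00106), and quantile normalization turned it to 0.12, so no direction is given for it. For MHC class I (19 tested of 19 listed), 6 rose, 0 fell and 13 did not pass, with a median log2 fold change of 0.06. B2m was at 4609 and 4656 FPKM in the agonist libraries, against 4266 and 4358 FPKM in the vehicle libraries (0.10 ± 0.02), and the immunoproteasome activator chain Psme2 rose by 0.25 ± 0.03. Under quantile normalization 3 class I members fell.

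Interferon-stimulated genes rose more often than they fell, with a small median change. Ifnb1 passed but stayed under 1 FPKM, at 0.296 and 0.365 FPKM in the agonist libraries, against 0.0366 and 0.110 FPKM in the vehicle libraries (0.31 ± 0.07, limma adjusted p = 0.00421). Of the interferon-stimulated genes (36 tested of 36 listed), 17 rose, 7 fell and 12 did not pass, with a median log2 fold change of 0.09. Gbp5, a guanylate-binding protein that supports inflammasomes, was at 32.2 and 30.3 FPKM in the agonist libraries, against 12.3 and 12.9 FPKM in the vehicle libraries (1.25 ± 0.04), and Gbp2 rose by 0.97 ± 0.04. The antiviral genes Rsad2 (0.69 ± 0.06), Ifit1 (0.67 ± 0.04) and Isg15 (0.58 ± 0.05) rose, Isg15 at 156 and 137 FPKM in the agonist libraries, against 98.2 and 96.6 FPKM in the vehicle libraries, while Oas3 was at 40.9 and 39.5 FPKM in the agonist libraries, against 52.7 and 53.5 FPKM in the vehicle libraries (-0.39 ± 0.03) and Oas2 (-0.31 ± 0.03) and Bst2 (-0.21 ± 0.03) fell. Of the interferon regulatory factors with Ifnb1 (11 tested of 11 listed), 5 rose, 4 fell and 2 did not pass, with a median log2 fold change of 0.03. Irf8 (0.39 ± 0.03) and Irf4 (0.37 ± 0.03), both needed for dendritic cell lineages, rose, and the TLR7 and TLR9 effectors Irf5 (-0.38 ± 0.03) and Irf7 (-0.21 ± 0.02) fell.

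More cell death and survival genes rose than fell. Of the 31 tested of 32 listed, 16 rose, 7 fell and 8 did not pass, with a median log2 fold change of 0.14. Nlrp3, the inflammasome sensor, was at 12.03 and 11.9 FPKM in the agonist libraries, against 4.68 and 4.62 FPKM in the vehicle libraries (1.197 ± 0.04), and the caspase inhibitor Cflar (0.82 ± 0.03) and the inflammatory caspase Casp4 (0.59 ± 0.03) rose. The survival genes Bcl2a1a (0.57 ± 0.03), Bcl2a1b (0.50 ± 0.02) and Bcl2a1d (0.54 ± 0.03) rose too, but they are near-identical copies whose reads may have been shared. Bcl2 was low and fell, at 1.53 and 1.70 FPKM in the agonist libraries, against 2.53 and 2.25 FPKM in the vehicle libraries (-0.38 ± 0.07).

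Immune metabolic enzymes were split between strong rises and falls. Of the 21 tested of 23 listed, 9 rose, 7 fell and 5 did not pass, with a median log2 fold change of 0.01, with 5 more than 2-fold higher. Nos2, the inducible nitric oxide synthase, was at 170.0 and 162 FPKM in the agonist libraries, against 40.4 and 39.6 FPKM in the vehicle libraries (2.03 ± 0.04, limma adjusted p = 4.71e-10), and Gch1, which makes its cofactor, rose by 0.75 ± 0.04. Irg1, which makes itaconate, was at 869 and 849 FPKM in the agonist libraries, against 405 and 385 FPKM in the vehicle libraries (1.12 ± 0.04). The arginases parted: Arg2 was at 17.9 and 17.2 FPKM in the agonist libraries, against 8.07 and 7.76 FPKM in the vehicle libraries (1.06 ± 0.03), and Arg1, a gene of IL-4 activation, was at 4.97 and 6.20 FPKM in the agonist libraries, against 12.7 and 12.8 FPKM in the vehicle libraries (-1.07 ± 0.07).

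More acute phase genes rose than fell, and matrix protease genes changed in both directions. Saa3, a serum amyloid, was at 635 and 645 FPKM in the agonist libraries, against 63.7 and 63.2 FPKM in the vehicle libraries (3.31 ± 0.06, limma adjusted p = 1.32e-09), and Lcn2, which binds bacterial siderophores, was at 119.5 and 126 FPKM in the agonist libraries, against 15.8 and 14.6 FPKM in the vehicle libraries (2.94 ± 0.09). Marco, a scavenger receptor for bacteria, was at 59.3 and 61.4 FPKM in the agonist libraries, against 14.2 and 14.5 FPKM in the vehicle libraries (1.998 ± 0.04), Ptx3 rose by 2.27 ± 0.07 and haptoglobin Hp by 0.81 ± 0.03. Of the acute phase and alarm proteins (15 tested of 16 listed), 9 rose, 2 fell and 4 did not pass, with a median log2 fold change of 0.38. Of the matrix proteases and inhibitors (19 tested of 20 listed), 10 rose, 7 fell and 2 did not pass, with a median log2 fold change of 0.39. The plasminogen activator inhibitor Serpinb2 (1.51 ± 0.09) and the collagenase Mmp13 (0.89 ± 0.03) rose, while Mmp19, a metalloproteinase, had the largest fall of all genes that passed, at 13.5 and 13.6 FPKM in the agonist libraries, against 56.7 and 54.5 FPKM in the vehicle libraries (-1.96 ± 0.04, limma adjusted p = 7.88e-10). The inhibitor Timp2 was lower as well, at 3.92 and 4.04 FPKM in the agonist libraries, against 8.56 and 8.49 FPKM in the vehicle libraries (-0.94 ± 0.04).

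Markers of granulocytes moved with these genes in part. The neutrophil and granulocyte precursor markers, a list that holds Lcn2, summed to 313 and 330.1 FPKM in the agonist libraries, against 227 and 217 FPKM in the vehicle libraries. Of the 14 tested of 18 listed, 4 rose, 2 fell and 8 did not pass, with a median log2 fold change of 0.04. Camp was at 16.9 and 17.0 FPKM in the agonist libraries, against 6.91 and 6.56 FPKM in the vehicle libraries (1.22 ± 0.05), Cebpe, a factor of granulocyte precursors, was at 3.24 and 3.80 FPKM in the agonist libraries, against 7.65 and 7.72 FPKM in the vehicle libraries (-0.95 ± 0.07), S100a8 did not pass at 80.4 and 81.6 FPKM in the agonist libraries, against 80.1 and 71.7 FPKM in the vehicle libraries, and Elane was listed at 0 in all 4 libraries. The part of granulocytes in the acute phase result was not tested.

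The largest falls were smaller than the largest rises and included genes of growth, adenosine and lipid handling. Ccnd1, the G1 cyclin that responds to growth factors, was at 2.35 and 2.41 FPKM in the agonist libraries, against 8.29 and 7.73 FPKM in the vehicle libraries, without overlap (-1.41 ± 0.05), and Vegfa, the vascular growth factor, was at 4.94 and 5.48 FPKM in the agonist libraries, against 12.7 and 13.5 FPKM in the vehicle libraries (-1.19 ± 0.05). Nt5e, the ectoenzyme that makes adenosine, was at 2.61 and 2.96 FPKM in the agonist libraries, against 9.52 and 9.77 FPKM in the vehicle libraries (-1.49 ± 0.07). The lipid genes Fabp4 (-1.27 ± 0.06) and Scd1 (-1.24 ± 0.04), the guanine deaminase Gda (-1.53 ± 0.07), the inhibitor of differentiation Id3 (-1.18 ± 0.06) and the inhibitory receptor Cd300lf (-1.16 ± 0.03) also fell.

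**Figure D3:**
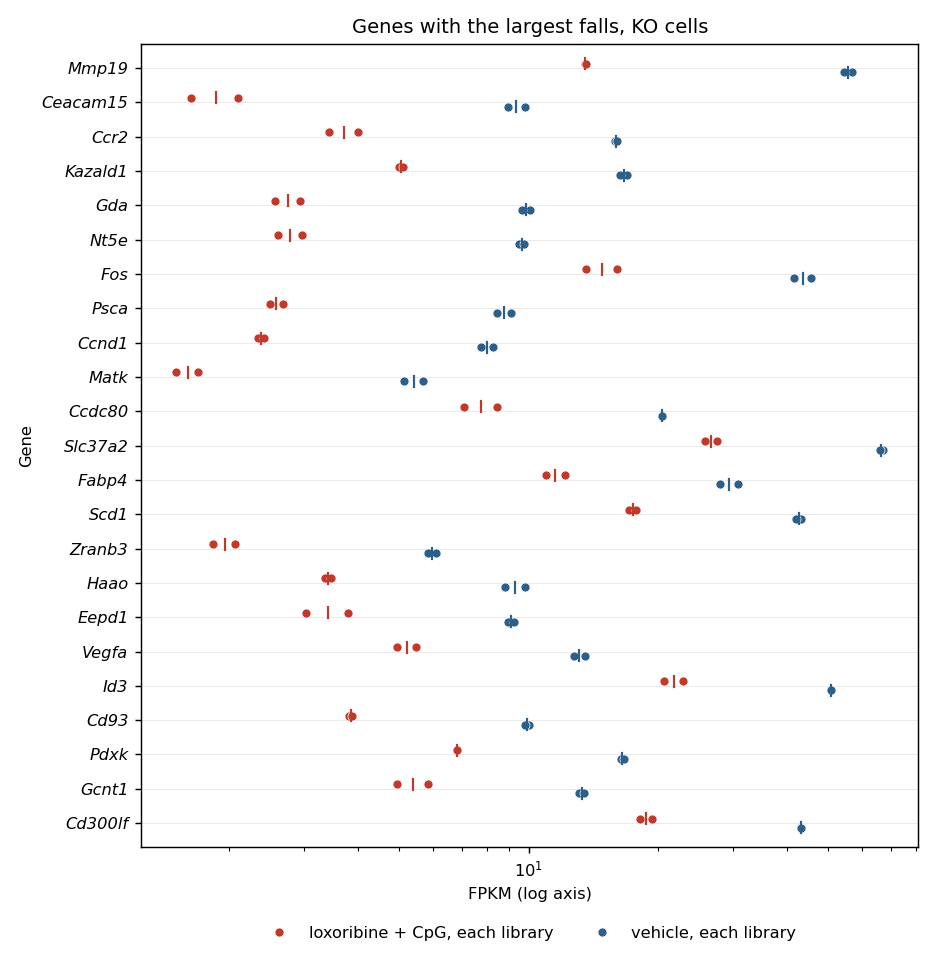
FPKM (log axis) of 23 of the 25 genes with the largest falls in each of the 4 KO libraries, agonist and vehicle, with 1 point per library and a tick at the mean. Because the genes were chosen for non-overlapping groups, both agonist points lie below both vehicle points in every gene shown. Mmp19, the largest fall, is at 13.5 and 13.6 FPKM with agonist against 56.7 and 54.5 FPKM with vehicle.

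Uptake receptors were mostly lower. Of the Fc, complement and uptake receptors (25 tested of 25 listed), 5 rose, 17 fell and 3 did not pass, with a median log2 fold change of -0.33. Trem2, a receptor for lipids and dying cells, was at 24.99 and 26.6 FPKM in the agonist libraries, against 49.8 and 51.4 FPKM in the vehicle libraries (-0.95 ± 0.03). Fcgr1, the high-affinity IgG receptor, was at 2.99 and 3.89 FPKM in the agonist libraries, against 7.34 and 7.64 FPKM in the vehicle libraries (-0.94 ± 0.08), and Mfge8, which bridges apoptotic cells to phagocytes, was at 178 and 175 FPKM in the agonist libraries, against 276 and 279.8 FPKM in the vehicle libraries (-0.65 ± 0.02). Among lectins (17 tested of 24 listed), 5 rose, 11 fell and 1 did not pass, with a median log2 fold change of -0.21. The mannose receptor Mrc1 was at 11.1 and 11.8 FPKM in the agonist libraries, against 24.9 and 24.8 FPKM in the vehicle libraries (-1.06 ± 0.04) and the β-glucan receptor Clec7a at 132 and 140.1 FPKM in the agonist libraries, against 295 and 272 FPKM in the vehicle libraries (-1.05 ± 0.04). Clec4e, which senses mycobacterial glycolipid and damaged cells, ran against them at 275 and 256 FPKM in the agonist libraries, against 107 and 96.9 FPKM in the vehicle libraries (1.38 ± 0.05), as did Clec4a1 (1.57 ± 0.04).

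Lysosomal genes fell by small steps. Of the proteases and acid hydrolases (25 tested of 25 listed), 3 rose, 21 fell and 1 did not pass, with a median log2 fold change of -0.24. Atp6v0d2, a proton pump subunit, was at 82.0 and 80.1 FPKM in the agonist libraries, against 137 and 132 FPKM in the vehicle libraries (-0.72 ± 0.03). Psap, the saposin precursor, was at 2296 and 2445 FPKM in the agonist libraries, against 3314 and 3392 FPKM in the vehicle libraries (-0.50 ± 0.03), and Ctss, the protease that trims the invariant chain, at 1521 and 1594 FPKM in the agonist libraries, against 1956 and 1999 FPKM in the vehicle libraries (-0.34 ± 0.03). In each of these genes the groups lay apart. Cst3, an inhibitor of cysteine proteases, was among the 3 that rose, at 5129.5 and 5004 FPKM in the agonist libraries, against 3975 and 4227 FPKM in the vehicle libraries (0.31 ± 0.03). Of the genes of the IL-4 response (18 tested of 23 listed), 3 rose, 13 fell and 2 did not pass, with a median log2 fold change of -0.15, with Arg1 and Mrc1, given above, among the falls.

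DNA replication and cell cycle genes were lower almost throughout. Of the 40 tested of 40 listed, 2 rose, 38 fell and 0 did not pass, with a median log2 fold change of -0.45, against 25.3% of all genes that fell. Mcm2, a subunit of the replicative helicase, was at 5.64 and 6.83 FPKM in the agonist libraries, against 14.4 and 13.5 FPKM in the vehicle libraries (-1.05 ± 0.07, limma adjusted p = 7.70e-07). Mcm7 was at 9.61 and 11.0 FPKM in the agonist libraries, against 19.8 and 20.1 FPKM in the vehicle libraries (-0.89 ± 0.05), and the loading factor Cdc6 was at 0.711 and 0.906 FPKM in the agonist libraries, against 2.25 and 2.34 FPKM in the vehicle libraries (-0.87 ± 0.07). The S phase factors E2f2 (-0.92 ± 0.05), Gins1 (-0.86 ± 0.07) and Ccne2 (-0.86 ± 0.06) fell about as much. The 2 genes that rose were Mki67, the proliferation antigen, at 26.4 and 27.4 FPKM in the agonist libraries, against 23.8 and 22.95 FPKM in the vehicle libraries (0.19 ± 0.03, limma adjusted p = 0.001), and Tyms, which makes thymidylate, at 16.3 and 15.96 FPKM in the agonist libraries, against 8.92 and 8.26 FPKM in the vehicle libraries (0.84 ± 0.04). Of the G1 cyclins and inhibitors (16 tested of 16 listed), 5 rose, 8 fell and 3 did not pass, with a median log2 fold change of -0.14. Ccnd2 was at 118 and 113 FPKM in the agonist libraries, against 62.3 and 60.7 FPKM in the vehicle libraries (0.90 ± 0.03), opposite to Ccnd1, and the inhibitor Cdkn1a rose by 0.31 ± 0.03.

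**Figure D4:**
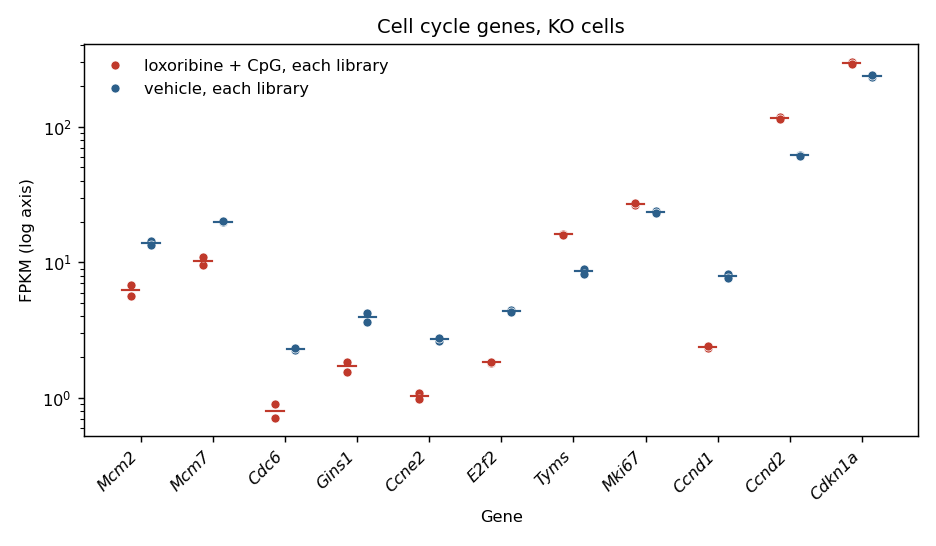
FPKM (log axis) of the cell cycle, DNA replication and G1 genes named in the text, in each of the 4 KO libraries, with 1 point per library and a tick at the group mean. Both agonist points lie below both vehicle points in Mcm2, Mcm7, Cdc6, Gins1, Ccne2, E2f2 and Ccnd1, and above them in Tyms, Mki67, Ccnd2 and Cdkn1a.

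Sterol synthesis genes rose more often than they fell, and lipid carrier genes fell more often than they rose. Of the sterol synthesis and uptake genes (23 tested of 24 listed), 16 rose, 4 fell and 3 did not pass, with a median log2 fold change of 0.19. With both second KO libraries left out, 11 rose and 2 fell. Idi1, an isoprenoid enzyme, was at 41.4 and 40.5 FPKM in the agonist libraries, against 24.1 and 22.3 FPKM in the vehicle libraries (0.79 ± 0.04), whereas Dhcr7, a late enzyme of the pathway, was at 3.87 and 4.42 FPKM in the agonist libraries, against 8.78 and 8.70 FPKM in the vehicle libraries (-0.92 ± 0.05). Of lipid carriers and storage genes (17 tested of 17 listed), 4 rose, 10 fell and 3 did not pass, with a median log2 fold change of -0.20. Fabp5 was at 439.6 and 441 FPKM in the agonist libraries, against 710.5 and 737 FPKM in the vehicle libraries (-0.72 ± 0.02) and the droplet coat Plin2 at 205 and 215 FPKM in the agonist libraries, against 332 and 339 FPKM in the vehicle libraries (-0.68 ± 0.03), while Acsl1, which activates fatty acids, was at 215 and 216 FPKM in the agonist libraries, against 89.4 and 82.7 FPKM in the vehicle libraries (1.31 ± 0.04). Pparg, the lipid-sensing nuclear receptor, was at 2.23 and 2.24 FPKM in the agonist libraries, against 3.97 and 4.16 FPKM in the vehicle libraries (-0.64 ± 0.07). Of the sterol export and LXR targets (15 tested of 15 listed), 2 rose, 5 fell and 8 did not pass, with a median log2 fold change of -0.02, and 3 fell without the first agonist or the second vehicle library.

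Of the glycolysis and hypoxia genes (27 tested of 28 listed), 5 rose, 15 fell and 7 did not pass, with a median log2 fold change of -0.18. Pkm, the last enzyme of the pathway, was at 489.6 and 501 FPKM in the agonist libraries, against 662 and 658 FPKM in the vehicle libraries (-0.41 ± 0.02), and the lactate exporter Slc16a3 at 67.1 and 67.6 FPKM in the agonist libraries, against 96.7 and 97.3 FPKM in the vehicle libraries (-0.52 ± 0.02). In both genes the agonist libraries lay below the vehicle libraries. Of the TCA cycle enzymes (20 tested of 20 listed), 2 rose, 10 fell and 8 did not pass, with a median log2 fold change of -0.08. Idh1 was at 82.9 and 84.8 FPKM in the agonist libraries, against 119 and 117 FPKM in the vehicle libraries (-0.49 ± 0.03), while Acly, which makes cytosolic acetyl-CoA, was at 78.6 and 79.0 FPKM in the agonist libraries, against 61.6 and 60.5 FPKM in the vehicle libraries (0.36 ± 0.02). Of respiratory chain and ATP synthase genes (32 tested of 32 listed), 4 rose, 11 fell and 17 did not pass, with a median log2 fold change of -0.05. Sdhd, a subunit of succinate dehydrogenase, was at 121 and 121 FPKM in the agonist libraries, against 142 and 143 FPKM in the vehicle libraries (-0.23 ± 0.02). The counts of this list depended on scaling and libraries, with 20 falls under quantile normalization and 7 without either vehicle library. Its rises numbered 2 without the second agonist library, 2 without the first vehicle library and 0 without the second vehicle library.

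More antioxidant and stress genes rose than fell, while metal handling genes were split. Of the NRF2 antioxidant enzymes (22 tested of 22 listed), 13 rose, 5 fell and 4 did not pass, with a median log2 fold change of 0.16. Sod2, the mitochondrial superoxide dismutase, was at 147 and 155 FPKM in the agonist libraries, against 59.0 and 56.0 FPKM in the vehicle libraries (1.38 ± 0.04). The autophagy receptor Sqstm1 was at 738 and 723 FPKM in the agonist libraries, against 475 and 466 FPKM in the vehicle libraries (0.63 ± 0.02), and Hmox1, which breaks down heme, at 720.5 and 717 FPKM in the agonist libraries, against 484 and 492 FPKM in the vehicle libraries (0.56 ± 0.02). In these genes the groups did not overlap. Of the metal handling genes (14 tested of 17 listed), 5 rose, 5 fell and 4 did not pass, with a median log2 fold change of 0.02. The importer Slc11a2 was at 32.5 and 32.4 FPKM in the agonist libraries, against 16.2 and 16.6 FPKM in the vehicle libraries (0.95 ± 0.03), and the exporter Slc40a1, ferroportin, was at 6.82 and 6.92 FPKM in the agonist libraries, against 15.6 and 16.5 FPKM in the vehicle libraries (-1.11 ± 0.03). Of integrated stress and unfolded protein response genes (24 tested of 25 listed), 13 rose, 7 fell and 4 did not pass, with a median log2 fold change of 0.11, with Asns at 11.2 and 11.1 FPKM in the agonist libraries, against 7.35 and 6.34 FPKM in the vehicle libraries (0.64 ± 0.06) and Atf4 higher by 0.29 ± 0.02. Among cytosolic ribosomal protein genes (36 tested of 36 listed), 0 rose, 1 fell and 35 did not pass, with a median log2 fold change of 0.00. Under quantile normalization 7 of them fell, and 6 did without the first agonist library. With both second KO libraries left out 3 of them rose.

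No estrogen-linked gene rose, and nuclear receptors changed in both directions. Of the estrogen receptors and estrogen-linked genes (14 tested of 20 listed), 0 rose, 10 fell and 4 did not pass, with a median log2 fold change of -0.26. Over all genes tested, 25.9% rose and 25.3% fell. Fewer members of this list fell without the second vehicle library, and fewer with both second KO libraries left out. Besides Ccnd1, Vegfa and Esr1, given above, Igf1, a growth factor, was at 20.7 and 22.4 FPKM in the agonist libraries, against 27.1 and 28.6 FPKM in the vehicle libraries (-0.36 ± 0.04). Of the nuclear receptors (17 tested of 21 listed), 4 rose, 6 fell and 7 did not pass, with a median log2 fold change of -0.04, and 6 rose and 6 fell without the second agonist library. Nr4a3, an early response receptor, was at 58.0 and 56.7 FPKM in the agonist libraries, against 86.2 and 83.0 FPKM in the vehicle libraries (-0.55 ± 0.03). Estrogen was not varied between these groups, and the KO vehicle and agonist labels differ in allele as described.

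Markers of other cells that the culture could hold were summed in each library. The macrophage markers summed to 588 and 626 FPKM in the agonist libraries, against 622 and 634 FPKM in the vehicle libraries, and of the 11 tested of 15 listed, 3 rose, 7 fell and 1 did not pass, with a median log2 fold change of -0.35. Emr1, which encodes F4/80, was at 106 and 110.2 FPKM in the agonist libraries, against 39.2 and 40.0 FPKM in the vehicle libraries (1.42 ± 0.03), opposite to the list median. Monocyte markers summed to 247 and 251 FPKM in the agonist libraries, against 258 and 258 FPKM in the vehicle libraries, and most of each sum was Ly6c2, which did not pass at 198 and 199 FPKM in the agonist libraries, against 188 and 189 FPKM in the vehicle libraries. Of these markers (8 tested of 9 listed), 3 rose, 2 fell and 3 did not pass, with a median log2 fold change of 0.02. Cx3cr1 (0.62 ± 0.09), Nr4a1 (0.39 ± 0.12) and Treml4 (0.18 ± 0.04) rose, and Fcgr4 (-0.64 ± 0.05) and Ccr2, given above, fell. The Nr4a1 call was lost without the first agonist library (adjusted p = 0.146), without the second vehicle library (0.123) and without the filter on low values (0.0689). Plasmacytoid markers summed to 452 and 435 FPKM in the agonist libraries, against 519 and 506 FPKM in the vehicle libraries, nearly all of it Bst2. Erythroid markers summed to 28.5 and 30.2 FPKM in the agonist libraries, against 36.8 and 34.6 FPKM in the vehicle libraries. Nearly all of it was Tfrc, which the IL-4 response and metal handling lists also hold. Mast cell, eosinophil, T and NK cell, and stromal markers each summed to less than 9 FPKM in every KO library. The part of a changed cell makeup in the responses above was not tested.

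The KO response was then set against the WT response in the same fit, gene by gene, to find where they differed. The difference, KO minus WT, was more positive in 261 of 11347 genes (2.3%) and more negative in 528 (4.65%), with a median over all genes of -0.01. Ccl7, Ccl4 and Ccl2 were among the 10 largest positive differences, and Cxcl5, Cd40 and Il12b among the 10 largest negative ones. The counts rest on few libraries: they were 141 and 292 without the second WT vehicle library, 146 and 285 without the first, and 155 and 331 without the second WT agonist library. Without the first KO vehicle library they were 142 and 291, and without the second 162 and 336. The KO and WT arms differed in vehicle levels too, as the values below show, and an allele difference between the KO groups, if the genotype labels hold, cannot be told apart from these differences. The macrophage marker C1qa was at 3.09 and 3.45 FPKM in KO vehicle and 115 and 110 FPKM in WT vehicle libraries. Arg1 was at 12.7 and 12.8 FPKM against 263 and 262 FPKM. Marco went the other way, at 14.2 and 14.5 FPKM against 5.13 and 5.63 FPKM. The part of cell makeup in the differences was not tested.

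Ccl7, a monocyte attractant, was at 20.1 and 20.4 FPKM in KO agonist and 8.03 and 8.595 FPKM in KO vehicle libraries, and at 59.3 and 55.8 FPKM in WT agonist and 74.0 and 70.0 FPKM in WT vehicle libraries. Its response was 1.19 in KO and -0.32 in WT, a difference of 1.51 ± 0.06 (limma adjusted p = 2.69e-06). The KO groups separated upward and the WT groups downward, and both KO groups lay below both WT groups. Ccl2 was at 205 and 199 FPKM in KO agonist and 94.2 and 95.1 FPKM in KO vehicle libraries, and at 315 and 297 FPKM in WT agonist and 295 and 299 FPKM in WT vehicle libraries (1.05 ± 0.04, limma adjusted p = 2.69e-06). WT agonist and vehicle values of Ccl2 overlapped, and the KO values did not. Mmp13 was at 60.4 and 57.2 FPKM in KO agonist and 31.6 and 30.8 FPKM in KO vehicle libraries, and at 157 and 150 FPKM in WT agonist and 171 and 172 FPKM in WT vehicle libraries (1.05 ± 0.05).

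The macrophage factor Maf rose in KO (0.93) and fell in WT (-0.19), a difference of 1.11 ± 0.09. Ccl4 (1.47 ± 0.15, limma adjusted p = 0.00389) and Ccl3 (0.81 ± 0.08) rose in both arms, more in KO. Ccl3 was at 845 and 772 FPKM in KO agonist and 845 and 838 FPKM in WT agonist libraries, and at 54.8 and 58.9 FPKM in KO vehicle and 99.5 and 110.4 FPKM in WT vehicle libraries, so the agonist values of the arms were close and the vehicle values lower in KO. With both second KO libraries left out the Ccl4 difference was 1.49 and its adjusted p 0.0938. Lcn2 differed by 0.82 ± 0.12 (limma adjusted p = 0.0114), a call lost without the first or second KO agonist library (adjusted p = 0.0578 and 0.0771) and without the first or second WT agonist library (0.0612 and 0.0738). C3ar1, a complement receptor, did not pass in KO (-0.02) and fell in WT (-0.78), a difference of 0.76 ± 0.07.

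On the negative side, Cxcl5, a neutrophil attractant, was at 24.0 and 27.0 FPKM in KO agonist and 5.04 and 5.15 FPKM in KO vehicle libraries, and at 155 and 157 FPKM in WT agonist and 15.3 and 15.0 FPKM in WT vehicle libraries. It rose in both arms, by 2.12 in KO and 3.28 in WT (-1.17 ± 0.07, limma adjusted p = 2.72e-05), and every KO agonist value was far below the WT agonist values. Cd40 was at 252 and 234 FPKM in KO agonist and 171 and 175 FPKM in WT agonist libraries, with 78.4 and 79.7 FPKM in KO vehicle and 29.3 and 31.6 FPKM in WT vehicle libraries (-0.86 ± 0.06). For Cd40 and Il12b the KO arm was higher than WT in both treatments, with a larger ratio in vehicle. Il12b was at 555 and 532 FPKM in KO agonist and 306 and 309 FPKM in WT agonist libraries, with 81.7 and 80.6 FPKM in KO vehicle and 25.6 and 28.1 FPKM in WT vehicle libraries (-0.74 ± 0.05, limma adjusted p = 1.11e-04). Cav1 (-0.92 ± 0.04), Cd70 (-0.82 ± 0.08), Apol7c (-0.78 ± 0.03), the class I-like H2-M2 (-0.78 ± 0.04), Fpr1 (-0.71 ± 0.06) and Tnfsf15 (-0.69 ± 0.05) also rose less in KO. Clec5a fell in KO (-0.30) and rose in WT (0.41), a difference of -0.71 ± 0.06.

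**Figure D5:**
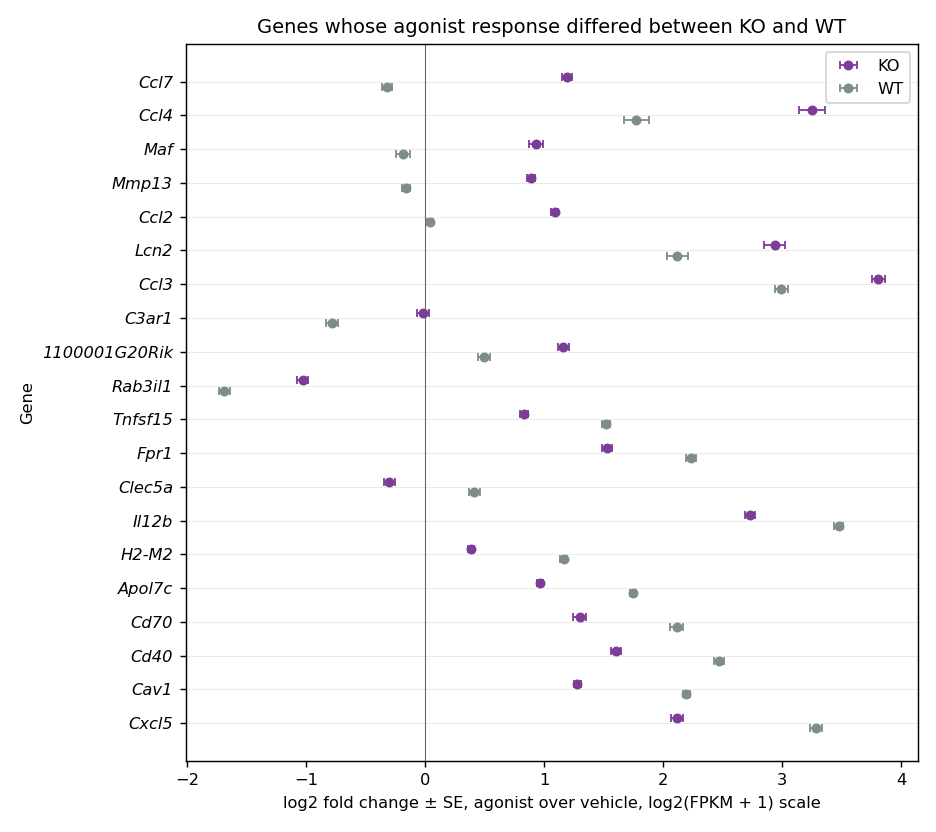
Log2 fold change (agonist minus vehicle, with its standard error) in KO and in WT cells for the 20 genes with the largest differences between the arms, 10 in each direction. Ccl7 lies above 0 in KO at 1.19 and below 0 in WT at -0.32, and Cxcl5 lies at 2.12 in KO and 3.28 in WT.

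By list, differences from WT were spread over many lists, most of them in the negative direction. Of 21 costimulation genes tested, 1 differed in the positive direction and 14 in the negative, and of 21 NF-kB feedback genes 1 and 11. A negative difference does not by itself mean a lower agonist level in KO. Fscn1 was at 1324 and 1264 FPKM in KO agonist and 741 and 776 FPKM in WT agonist libraries, with 642 and 646 FPKM in KO vehicle and 277 and 283 FPKM in WT vehicle libraries. Cd70 was at 7.74 and 7.32 FPKM in KO agonist and 7.96 and 8.30 FPKM in WT agonist libraries. The NF-kB subunits differed in 0 and 4 of 5 genes, the dendritic cell markers in 0 and 6 of 13, the cell death and survival genes in 0 and 11 of 31 and the MHC class II genes in 0 and 4 of 12. Of 26 inflammatory cytokines 2 differed in the positive and 8 in the negative direction, of 21 immune metabolic enzymes 0 and 6, and of 22 antioxidant enzymes 1 and 6. Of 12 chemokine receptors 1 and 3 differed, of 19 matrix proteases and inhibitors 4 and 5, and of 22 chemokines 5 and 4. Of 36 interferon-stimulated genes 7 were more positive in KO and 1 more negative, and of 16 AP-1 and Egr factors 4 and 1. Among the macrophage markers tested, Maf (1.11), Mertk (0.49) and Emr1 (0.22) were more positive in KO, and only Csf1r (-0.21) was more negative. Of 40 cell cycle and DNA replication genes 0 and 1 differed, and none of the 32 respiratory chain genes did. The share over all genes was 2.3% in the positive and 4.65% in the negative direction.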

How the data were processed

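RNA of bone marrow dendritic cells was sequenced from TruSeq libraries with paired ends, per the labels. The design text calls the cells CD11chi. Triplicates are mentioned in the labels; the groups here hold 2 libraries each. The authors deposited 1 table of FPKM (fragments per kilobase and M mapped fragments) for 24001 rows and 16 libraries. Per the submitters' processing notes, tools included STAR, HTSeq, DESeq2, cutadapt and FastQC, with build mm10 and no versions. Which program computed FPKM is not stated in them. FPKM keeps no counts, so the counting error of single values is not given. Depth, estimated from steps between low values, was 17.7 to 43.4 M fragments a library over the series, which is rough, since 46.0 to 51.1% of low values in KO libraries lay within 0.1 of a whole fragment.

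Rows of small RNAs (1228) were left out, 27 symbols turned into dates were not named, and 5 zeros in 4 genes were set missing where all other libraries (at least 12) held 5 FPKM or more. Genes with 1 FPKM in at least 2 libraries were tested. Because the values were not counts, limma trend with robust empirical Bayes (limma 3.58.1, R 4.3.3) was run on log2(FPKM + 1), each group having its own mean, with Benjamini-Hochberg adjustment and a threshold of 0.05. The 4 ovariectomized groups, all with the estradiol pellet, had paired libraries that differed by about counting noise. They were averaged to 1 sample each, which gave 12 samples and 4 residual degrees of freedom. Libraries of the KO groups differed by more than counting noise (variance ratio 10.701 with agonist and 4.236 with vehicle). The code was tested on simulated data, in which 80% of genes changed 1.2-fold and 100% of those changed 1.5-fold were recovered. The simulation changed 50 genes at each fold, all at 5 FPKM or more in KO vehicle, with the same added spread for every gene. Recovery of lower genes was not tested.

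Genes are named by a rule: the 25 largest rises and falls with non-overlapping groups and a mean of at least 5 FPKM in the higher group, up to 6 members of each list, the 10 largest KO minus WT differences in each direction, Esr1, and the 5 genes of each group whose 2 libraries differed most. Others were chosen after their values were seen: Tlr7, Tlr9, Unc93b1, Myd88, Nfkbia, Il23a, Csf3, Il27, Ebi3, Il10, Inhba, Lif, Il18, Tnfsf13b, Csf1, Cxcl10, Ccl6, Ccr7, Cd86, Cd274, Icam1, Mki67, Tyms, Itgax, Cst3, Ptgs1, Alox5, Gch1, Tbxas1, Alox5ap, Oas3, Oas2, Atf4, Hp and the genes under other observations. S100a8 and Ppbp were also named after their values were seen. A few genes that the rule names are not reported here. The members and lists were chosen with earlier results of these data known. Alternatives were other pseudocounts, filters, scalings, samples in the fit, a replicate block, a fit without trend and leaving out libraries.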

Additional observations from a re-analysis of the deposited data

Results flagged for a closer look

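The difference between the KO and the WT response, tested within the same limma fit, passed at an adjusted p of 0.05 in each gene given here. The values are log2 fold changes in KO minus those in WT. More positive in KO were Ccl7 (1.51), Ccl4 (1.47), Maf (1.11), Mmp13 (1.05), Ccl2 (1.05), Lcn2 (0.82), Ccl3 (0.81), C3ar1 (0.76), 1100001G20Rik (0.66) and Rab3il1 (0.66). More negative in KO were Cxcl5 (-1.17), Cav1 (-0.92), Cd40 (-0.86), Cd70 (-0.82), Apol7c (-0.78), H2-M2 (-0.78), Il12b (-0.74), Clec5a (-0.71), Fpr1 (-0.71) and Tnfsf15 (-0.69). Rab3il1 fell in both arms, with 4.58 and 5.04 FPKM in KO agonist and 10.5 and 11.1 FPKM in KO vehicle libraries, and less so in KO.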

How the results depend on the processing

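The counts of genes that rose and fell in KO cells (2942 and 2873) stayed within 1.5 times under every alternative run: 2016 and 2222 with both second KO libraries left out, 2340 to 2504 and 2417 to 2553 with any 1 KO library left out, and 2913 and 2930 after quantile normalization. Same-numbered libraries showed no shared deviation (correlation across genes -0.01 in KO). Library noise could hide a shared origin, so this cannot show whether they were paired. A replicate block gave 2809 and 2769 calls, 5470 of them shared in sign with the fit without it. The count over 2-fold higher was 199 at a pseudocount of 0.1 FPKM and 70 at 5 FPKM, and that over 2-fold lower was 206 and 13; a larger pseudocount shrinks the fold of low genes by construction. The KO minus WT counts were 166 and 316 without the filter, 85 and 234 with both second KO libraries left out, and 141 to 226 and 285 to 431 with 1 library left out, where fewer samples enter. Cd74 turned to 0.12 under quantile normalization (adjusted p = 0.00717); the cause was not tested. No scaling moved the median of all genes by over 0.1 on the log2 scale. With 4 residual degrees of freedom and log2 values near 1 FPKM, changes of low genes are the least certain.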

Other observations

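Genes outside the lists, chosen after their values were seen, held further receptors and signalling genes. Siglece, an inhibitory sialic acid receptor, was at 17.3 and 19.3 FPKM in the agonist libraries, against 3.73 and 3.85 FPKM in the vehicle libraries, and the groups lay apart (2.01 ± 0.06). Other inhibitory receptors were lower: Cd200r1 was at 20.5 and 24.6 FPKM in the agonist libraries, against 49.8 and 47.3 FPKM in the vehicle libraries (-1.08 ± 0.07), and Cd200r4 (-1.10 ± 0.04), Cd300a (-1.04 ± 0.05) and Ceacam1 (-1.07 ± 0.04) fell as well. The metabolite receptors Hcar2, at 21.3 and 20.5 FPKM in the agonist libraries, against 5.08 and 4.70 FPKM in the vehicle libraries (1.89 ± 0.05), and Gpr84, at 69.9 and 70.2 FPKM in the agonist libraries, against 29.2 and 27.8 FPKM in the vehicle libraries (1.27 ± 0.05), rose. S1pr1, the exit receptor for sphingosine phosphate, was at 1.46 and 1.88 FPKM in the agonist libraries, against 4.70 and 4.78 FPKM in the vehicle libraries (-1.11 ± 0.07), while Cd69, whose protein removes that receptor from the surface, was at 7.91 and 7.76 FPKM in the agonist libraries, against 3.02 and 3.19 FPKM in the vehicle libraries (1.11 ± 0.08). Stat5a, which carries GM-CSF signals, was at 101 and 94.2 FPKM in the agonist libraries, against 47.9 and 48.2 FPKM in the vehicle libraries (1.00 ± 0.04), and the kinase Pim2 (1.23 ± 0.07) and the factor Cebpd (1.10 ± 0.05) rose. Aoah, which inactivates bacterial lipopolysaccharide, was at 22.7 and 25.5 FPKM in the agonist libraries, against 9.13 and 10.1 FPKM in the vehicle libraries (1.24 ± 0.05), and the ectoenzyme Cd38 at 46.5 and 48.3 FPKM in the agonist libraries, against 21.6 and 20.3 FPKM in the vehicle libraries (1.14 ± 0.04).

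A few genes differed widely within a pair. Lars2, the mitochondrial leucyl tRNA synthetase, was at 90.2 and 113 FPKM in the agonist libraries, against 198 and 1058 FPKM in the vehicle libraries, so that 1 vehicle library stood far above the other 3, and its change did not pass (limma adjusted p = 0.107). Ear3 was at 11.3 and 11.98 FPKM in the agonist libraries, against 11.6 and 17.3 FPKM in the vehicle libraries, and Rpl26 at 20.3 and 35.8 FPKM in the agonist libraries, against 38.0 and 30.1 FPKM in the vehicle libraries, with overlap between groups in both. Fabp3 was at 6.63 and 4.38 FPKM in the agonist libraries, against 1.17 and 0.801 FPKM in the vehicle libraries and Plk2 at 26.9 and 20.1 FPKM in the agonist libraries, against 14.8 and 14.0 FPKM in the vehicle libraries, and both rose although their agonist libraries differed. Over all genes tested, 15 differed by more than 0.5 log2 units between the agonist libraries and 16 between the vehicle libraries.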
